A study of Mus musculus with 6 samples.

Results

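Txnip and the genes Arrdc1, Arrdc2, Arrdc3 and Arrdc4 encode alpha-arrestins, and these 5 genes, listed by symbol, are described here out of 39059 genes counted. They were chosen with their counts in homozygous and wild-type libraries already known, so the difference between genotypes in these 5 genes is a description, with no test. RNA had been sequenced from muscle stem cells, or satellite cells, sorted by flow cytometry from hind-limb muscle of mice aged 19 days after birth on the C57BL/6J background. Of the libraries, 3 were from Lmna Δ8-11 -/- mice, in which both copies of the lamin A/C gene lack exons 8 to 11, and 3 were from Lmna Δ8-11 +/+ mice, the wild type. The protocol mentions 3 mice for each genotype but no label assigns a library to an animal, so errors and p-values reflect only the spread between these libraries, which may in part be technical.

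Alpha-arrestins are adaptors of membrane traffic with the fold of the arrestins that bind activated receptors. Proline-rich motifs in their tails recruit ubiquitin ligases of the NEDD4 family, which mark receptors and transporters for uptake from the cell surface. TXNIP also binds thioredoxin and curbs glucose entry through the transporters GLUT1 and GLUT4, and its gene and Arrdc4 are textbook targets of the sugar-sensing transcription factors MondoA and ChREBP with their partner Mlx.

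Txnip carries a match to that sugar-responsive element beside its start site, so its promoter is shown with those of Arrdc4, the other known target, and Arrdc2, the gene with the widest gap between genotypes. The sequences are the 250 bases before the RefSeq transcript start (assembly GRCm38.p6, of the same build as mm10), 5′ to 3′ on the strand of the gene. Txnip is at chr3:96557707-96557956 on the plus strand, Arrdc4 at chr7:68749239-68749488 on the minus strand and Arrdc2 at chr8:70839721-70839970 on the minus strand. Capitals mark matches to the motifs searched, which are named after the sequences.
Txnip: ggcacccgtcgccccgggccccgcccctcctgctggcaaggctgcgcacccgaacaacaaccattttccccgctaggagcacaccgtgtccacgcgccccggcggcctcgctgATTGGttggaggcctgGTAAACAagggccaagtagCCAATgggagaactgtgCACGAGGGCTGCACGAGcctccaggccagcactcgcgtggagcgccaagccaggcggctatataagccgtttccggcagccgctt
Arrdc4: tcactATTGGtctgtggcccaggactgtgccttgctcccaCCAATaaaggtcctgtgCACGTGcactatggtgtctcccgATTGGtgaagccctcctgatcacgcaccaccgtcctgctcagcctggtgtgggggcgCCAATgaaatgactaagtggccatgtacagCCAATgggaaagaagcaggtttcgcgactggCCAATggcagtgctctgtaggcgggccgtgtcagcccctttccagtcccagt
Arrdc2: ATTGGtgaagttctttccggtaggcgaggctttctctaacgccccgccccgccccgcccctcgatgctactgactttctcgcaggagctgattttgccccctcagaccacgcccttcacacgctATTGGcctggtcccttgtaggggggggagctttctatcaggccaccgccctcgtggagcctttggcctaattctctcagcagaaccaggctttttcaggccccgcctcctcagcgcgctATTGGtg

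Motifs were searched on both strands in windows from 250 bases before to 50 bases after a start, of which RefSeq's table gave 7 for the 5 genes and 32851 in all. The sugar-responsive element was written as a pair of boxes 5 bases apart, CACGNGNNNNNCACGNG. Looser pairs, or pairs with 1 box turned round, were not searched, so counts and absences apply to this form only. Txnip held 1 match, CACGAGGGCTGCACGAG, from 85 to 69 bases before its start, and 16 of the 32851 windows (0.0487%) held one. Txnip also held the forkhead motif TGTTTAC, the sequence bound by FoxO factors, in reverse from 121 to 115 bases before its start, a motif found in 3.65% of all windows. The Arrdc4 window held neither, but had 1 plain E box, CACGTG, from 193 to 188 bases before its start, where 7.15% of all windows held at least 1. It held 6 matches to CCAAT, the box bound by the factor NF-Y, which reads ATTGG in reverse, and 26 of all windows (0.0791%) held 6 or more. Arrdc2 held 3 such boxes and Txnip 2, where 3.37% of windows held 3 or more and 11.7% held 2 or more. Of the 3 Arrdc3 starts 2 had 1 CCAAT each, in overlapping windows that hold the same box, and Arrdc1 had no match to any of these motifs. The glucocorticoid receptor motif TGTTCT and the TATA box written as TATAAA, also searched, had no match in the 7 windows, where 19.0% and 13.6% of all windows held at least 1. Only these exact letters were searched. The Txnip sequence above holds the similar letters tatataag shortly before its start, so a TATA box in another form is not excluded. The CCAAT letters do not overlap those of the other motifs in these windows, and a match is a description of the letters, not of binding.

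**Figure D1:**
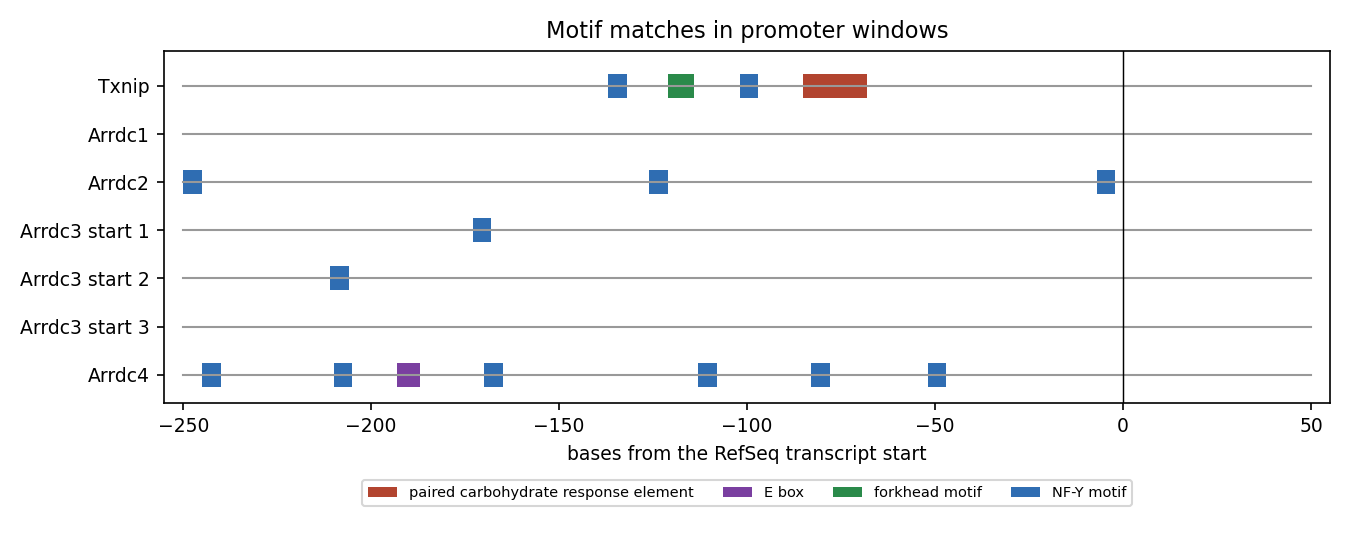
Matches to 4 motifs (coloured blocks; the NF-Y motif is CCAAT) in 7 promoter windows, with distance in bases from the RefSeq transcript start on the horizontal axis and 1 window per line. Txnip has the paired sugar-responsive element 85 to 69 bases before its start, and Arrdc4 has 6 NF-Y motifs and 1 E box.

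Reads assigned to genes numbered 6613636 to 9552751 per library. Lmna stood at 374 to 449 CPM (read counts divided by TMM-scaled library totals, in units of 1000000 reads) in homozygous and 840 to 1054 CPM in wild-type libraries, counted over the whole gene with its undeleted exons. Of the defining satellite cell markers, Pax7 and Myf5 were detected in all 6 libraries, and the summed level of 8 such markers was 1196 to 1913 CPM in homozygous and 2261 to 2415 CPM in wild-type libraries, with 5 of the 8 lower. 6 adipocyte markers summed to 55.7 to 389 CPM in homozygous and 0.461 to 1.14 CPM in wild-type libraries. 3 of the 3 tested were higher, and Lep was at 0 in every homozygous library. 6 fibro-adipogenic markers summed to 1312 to 1987 against 3925 to 4248 CPM (3 lower and 1 higher), and 6 erythroid markers to 194 to 780 against 777 to 1354 CPM (2 of 5 tested lower). The erythroid sums overlapped only through homozygous replicate 2, at 780 CPM against 777 CPM in wild-type replicate 1, and DESeq2 called 0 erythroid markers lower. Homozygous replicate 2 set the upper end of all 3 ranges. Homozygous replicates 1 and 3 were at 1196 and 1203 CPM for satellite cell, 1513 and 1312 CPM for fibro-adipogenic and 239 and 194 CPM for erythroid markers. The other 5 marker lists (endothelial, pericyte and smooth muscle, macrophage, Schwann cell and myofibre) also had overlapping sums. Pericyte and smooth muscle markers had the largest, 9243 to 9803 CPM in homozygous and 9266 to 13094 CPM in wild-type libraries. Schwann cell markers summed to 2862 to 3811 and 3518 to 4441 CPM. Both sums exceeded that of the satellite cell markers in every library, so levels below cannot be assigned to 1 cell type. Adipocyte, fibro-adipogenic and satellite cell marker sums did not overlap between genotypes, and their part in the differences below was not tested.

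The libraries also differed in reads from Y-linked genes, which numbered 1, 4498 and 3 in homozygous replicates 1 to 3 in turn and 0, 3074 and 4831 in wild-type replicates 1 to 3. The labels give no sex, and libraries with such reads were 1 of 3 homozygous and 2 of 3 wild type. The homozygous one, replicate 2, is also the one apart in marker sums, so these 2 traits cannot be told apart. With the presence of these reads as a covariate 1933 genes were called in place of 2980. Of the genes named below as called, Arrdc1, Arrdc3, Hecw2, Nedd4, Ndfip2, Vps37c, Prdx6, Mlxip, Mycn and Polr3gl were then no longer called.

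In TMM-scaled CPM, 4 of the 5 alpha-arrestin genes stood higher in every homozygous library than in every wild-type library, and Arrdc4 stood lower. For Arrdc4 this did not hold on plain library totals. Arrdc2 had the widest gap, 4.17-fold, followed by Arrdc1 and Txnip at 1.64-fold and 1.63-fold and Arrdc3 at 1.30-fold, while Arrdc4 was at 0.858-fold of the wild-type level. In the fit across all genes the same 4 were among those higher with edgeR's quasi-likelihood test at an adjusted p under 0.05, a call made for 9.67% of the 14099 genes tested, and Arrdc4 was not called. Homozygous values lay wholly above wild-type values for 20.2% of all genes tested and wholly below for 20.6%. Because the genes were chosen on these counts, nothing is read from the number called. In bulk RNA, fewer cells of a type and less RNA per cell cannot be told apart.

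**Figure D2:**
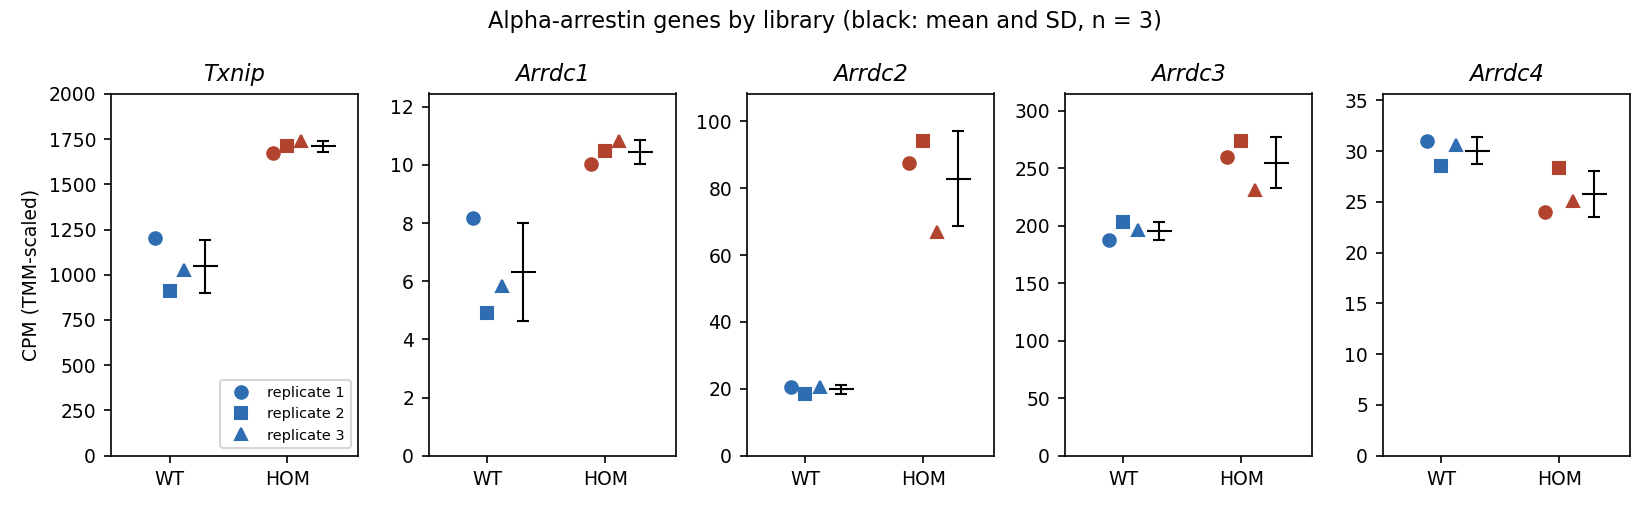
CPM of each alpha-arrestin gene (vertical axis, scale set per gene) in 3 wild-type (WT, blue) and 3 homozygous (HOM, red) libraries, with marker shapes for replicate numbers and black bars for mean and SD. Homozygous points lie above all wild-type points for Txnip, Arrdc1, Arrdc2 and Arrdc3, and below them for Arrdc4 on this TMM scaling.

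Txnip (ENSMUSG00000038393, chromosome 3, positions 96557957 to 96561883, plus strand, GRCm38) is the family member that binds thioredoxin. It stood at 1676, 1712 and 1741 CPM in homozygous replicates 1 to 3 in turn and at 1202, 910.5 and 1025 CPM in wild-type replicates 1 to 3. The homozygous libraries were close together and all exceeded the highest wild-type library, replicate 1. The means were 1709 ± 32.6 and 1046 ± 147 CPM (SD, n = 3), a log2 fold change of 0.71 (SE 0.15), homozygous minus wild type. Over the 14 alternative fits the log2 fold change ran from 0.61 to 0.82. Txnip held 78.1 to 83.9% of the reads of the 5 genes in each library.

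The gene Gm15441 lies on the opposite strand (chromosome 3, positions 96555765 to 96566801) and its exons overlap those of Txnip. It had 26, 18 and 16 reads in homozygous replicates 1 to 3 in turn and 21, 6 and 10 reads in wild-type replicates 1 to 3, so the ranges overlapped. Its log2 fold change was 0.65 (SE 0.42), and it did not pass edgeR's quasi-likelihood test (adjusted p = 0.29). There were 462 to 958 Txnip reads for each Gm15441 read. Whether strand was used in the counting is not stated in the labels, so reads from the overlapping stretch cannot be told apart by strand.

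Arrdc2 (ENSMUSG00000002910, chromosome 8, positions 70835129 to 70839720, minus strand) was at 87.4, 94.2 and 66.9 CPM in homozygous replicates 1 to 3 in turn and at 20.4, 18.4 and 20.6 CPM in wild-type replicates 1 to 3. Every homozygous library was more than 3-fold above every wild-type library, and homozygous replicate 3 was the lowest of its group. The log2 fold change was 2.06 (SE 0.15), the 74th highest of the 14099 genes tested, and ran from 1.91 to 2.20 over the 14 alternatives. Homozygous replicate 3, the lowest for Arrdc2, was the highest for the adipocyte marker sum (389 CPM, against 78.5 and 55.7 CPM in homozygous replicates 1 and 2). Without homozygous replicate 3 the Arrdc2 log2 fold change was 2.20. Homozygous replicate 2, the highest for Arrdc2, was the highest homozygous library for the satellite cell marker sum (1913 CPM). Without it the log2 fold change was 1.96. A link of Arrdc2 to either marker sum was not tested.

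Arrdc3 (ENSMUSG00000074794, chromosome 13, positions 80883384 to 80896042, plus strand) encodes an adaptor for the uptake of cell surface receptors. It was at 260.04, 274 and 231 CPM in homozygous replicates 1 to 3 in turn and at 187, 203 and 197 CPM in wild-type replicates 1 to 3. The groups did not overlap, with homozygous replicate 3 again the lowest of its group. The log2 fold change of 0.38 (SE 0.12) ran from 0.33 to 0.45 over the alternatives, but the gene was called in 0 of the 6 fits that left out 1 library and in 4 of the other 8.

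Arrdc1 (ENSMUSG00000026972, chromosome 2, positions 24925352 to 24935252, minus strand) encodes the adaptor that drives budding of small vesicles from the plasma membrane. It had the fewest reads, 72, 99 and 83 in homozygous replicates 1 to 3 in turn and 71, 31 and 46 in wild-type replicates 1 to 3. On scaled totals these were 10.04, 10.5 and 10.8 CPM against 8.19, 4.91 and 5.82 CPM. The homozygous libraries were nearly level, and wild-type replicate 1 stood apart from the other wild-type libraries toward the homozygous level. The log2 fold change of 0.71 (SE 0.22) was 0.95 without wild-type replicate 1, the only fit of the 6 without 1 library in which the gene was called, and 0.57 without wild-type replicate 2, the lowest of the 6. The gene was called in 3 of the other 8 alternatives.

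Arrdc4 (ENSMUSG00000042659, chromosome 7, positions 68736995 to 68749241, minus strand), with Txnip the known sugar-responsive member, was at 23.98, 28.3 and 25.1 CPM in homozygous replicates 1 to 3 in turn. In wild-type replicates 1 to 3 it was at 31.03, 28.5 and 30.6 CPM. On this TMM scaling the groups met but did not cross, with homozygous replicate 2 just under wild-type replicate 2. On plain library totals they crossed. Homozygous replicate 2, with 268 of 9552751 reads, then lay above wild-type replicate 2, with 180 of 6613636. On the log2 scale the difference was -0.22 (SE 0.13). It was negative in all 14 alternatives, from -0.33 to -0.16, and -0.33 was the value without replicate 2 of both genotypes.

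**Figure D3:**
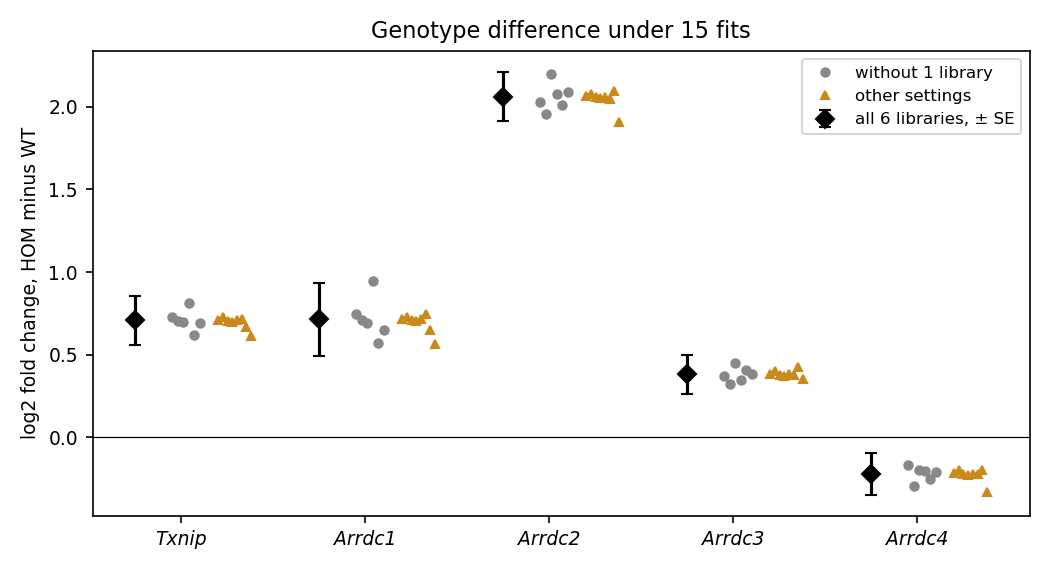
Log2 fold change, homozygous minus wild type (vertical axis), of each gene with all 6 libraries (black, with SE), without 1 library (grey) and under 8 other settings (orange). Arrdc2 lies near 2.06 throughout, and Arrdc4 lies below 0 in each fit.

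The homozygous means of Txnip and Arrdc4 lay on opposite sides of the wild-type means, but Arrdc4 was not called in the main fit or in any alternative. Per kilobase of exon, Txnip stood 78.2 to 90.4 times as high as Arrdc4 in homozygous libraries and 41.3 to 50.1 times as high in wild-type libraries. Arrdc2 stood at 0.29 to 0.34 of the Arrdc3 CPM in homozygous libraries and at 0.091 to 0.109 in wild-type libraries. These ratios do not depend on the scaling between libraries.

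Levels of different genes were compared as CPM per kilobase of the union of annotated exons. In wild-type libraries the order was Txnip at 335 ± 47.1, Arrdc3 at 31.2 ± 1.27, Arrdc4 at 7.44 ± 0.33, Arrdc2 at 6.13 ± 0.38 and Arrdc1 at 2.51 ± 0.67 (SD, n = 3), and no neighbours in this order overlapped. With the longest transcript as the length, Arrdc2 at 8.41 ± 0.53 came before Arrdc4 at 7.70 ± 0.34, so the order of these 2 depends on the length used. In homozygous libraries Arrdc2, at 25.6 ± 4.39, lay between Arrdc3 at 40.7 ± 3.52 and Arrdc4 at 6.38 ± 0.56. Txnip was at 547 ± 10.4 and Arrdc1 at 4.16 ± 0.16. With the longest transcript as the length, homozygous Arrdc1 was at 6.27 ± 0.24 and Arrdc4 at 6.60 ± 0.58, which is within their spread. Of 14077 tested genes with a length, Txnip ranked 99th in wild-type and 45th in homozygous libraries, Arrdc3 1171st and 843rd, and Arrdc2 5847th and 1405th.

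**Figure D4:**
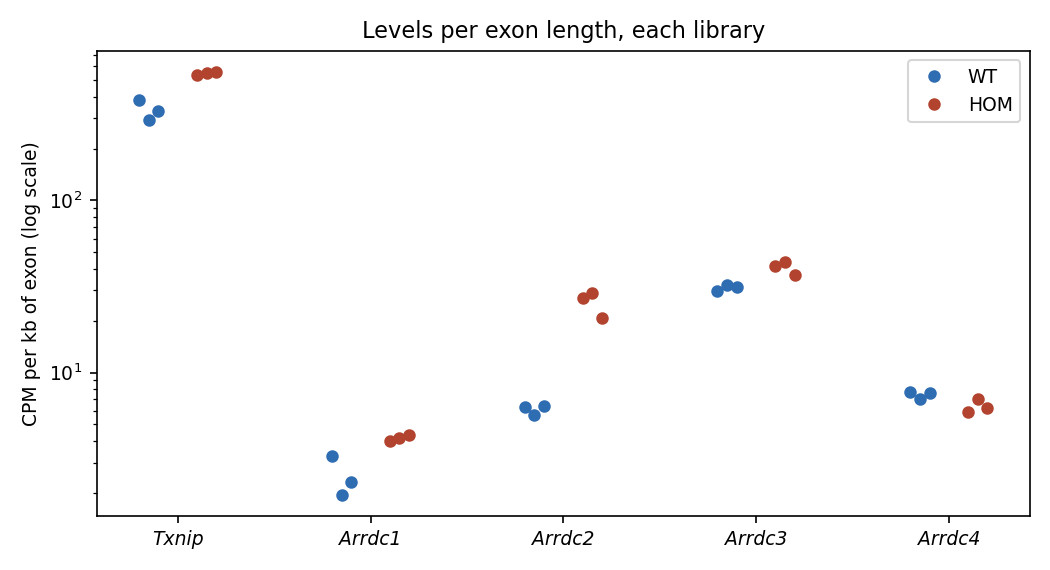
CPM per kilobase of exon (vertical axis, log scale) of each gene in 3 wild-type (blue) and 3 homozygous (red) libraries, each point 1 library. Txnip is highest and Arrdc1 lowest in both genotypes, and Arrdc2 lies below Arrdc4 in wild-type and above it in homozygous libraries.

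The other alpha-arrestin of the mouse, Arrdc5, had 0 reads in all 6 libraries, where 3 reads in a library correspond to 0.317 to 0.475 CPM. Among 8 other genes with an arrestin fold (Arrdc5, the beta-arrestins, the visual arrestins and the Vps26 subunits of retromer and related complexes) 5 were tested, and with edgeR's quasi-likelihood test 0 were higher and 0 lower. 1 had an unadjusted p under 0.05, and DESeq2 called 0. Vps26a, the most abundant, was at 75.5 ± 10.1 against 63.1 ± 6.01 CPM (adjusted p = 0.18). The beta-arrestin gene Arrb1 was at 61.7 ± 13.5 against 60.1 ± 9.16 CPM and Arrb2 at 12.2 ± 3.11 against 10.3 ± 1.22 CPM, so neither differed beyond the spread between libraries.

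Ubiquitin ligases of the NEDD4 family and their adaptors, the enzymes that alpha-arrestins recruit, mostly did not pass. Of 10 tested among 11, 2 rose, 2 fell and 6 were not called, with a median log2 fold change of 0.13 against -0.0038 over all genes tested, of which 9.67% were higher and 11.5% lower. Smurf1, a ligase that also acts on BMP receptor signalling, rose from 58.9 ± 8.80 to 123 ± 4.19 CPM, a difference of 1.06 on the log2 scale (SE 0.13, adjusted p = 0.00091). Hecw2 rose from 40.9 ± 4.23 to 58.99 ± 5.91 CPM, a difference of 0.52 on the log2 scale (SE 0.13, adjusted p = 0.018). Nedd4, the founding member, was the most abundant and fell from 1410 ± 88.2 to 998 ± 120 CPM, a difference of -0.50 on the log2 scale (SE 0.14, adjusted p = 0.035). Ndfip2, an adaptor named here after its values were seen, fell at -0.37 (SE 0.12, adjusted p = 0.044). Itch, the ligase known to mark TXNIP for degradation, was at 162 ± 13.6 against 133 ± 14.5 CPM and did not pass. Only Smurf1 held in all 6 fits that left out 1 library. Hecw2 was lost without homozygous replicate 1 or 3 or wild-type replicate 1 or 2 (adjusted p up to 0.065), Nedd4 without any library but homozygous replicate 2 (up to 0.14), and Ndfip2 without any 1 library (up to 0.13). With the Y-linked covariate 1 of the list was higher and 0 were lower, and with the DESeq2 test 2 were higher and 1 lower.

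Of 12 surface proteins known as cargo of alpha-arrestins or of their ligases, 11 were tested, of which 1 rose and 1 fell (median log2 fold change -0.06). Across all genes tested, 9.67% were higher and 11.5% lower. Insr, the insulin receptor, rose from 84.4 ± 13.9 to 189 ± 32.7 CPM, a difference of 1.16 on the log2 scale (SE 0.16, adjusted p = 0.0017). F2r, the thrombin receptor, fell from 260.5 ± 24.0 to 145 ± 28.6 CPM, a difference of -0.85 on the log2 scale (SE 0.15, adjusted p = 0.0053). Slc2a1 and Slc2a4, which encode the glucose transporters GLUT1 and GLUT4, were at 116 ± 19.6 against 133 ± 18.4 CPM and at 68.98 ± 5.07 against 58.8 ± 6.76 CPM, and neither passed. Slc2a3, another glucose transporter gene, was lower in every homozygous library, at 56.9 ± 2.95 against 71.9 ± 5.39 CPM. Its difference of -0.34 on the log2 scale (SE 0.11, adjusted p = 0.053) did not pass. At an unadjusted p under 0.05 with edgeR, 1 cargo gene was higher and 3 were lower.

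The ESCRT machinery, which ARRDC1 uses to bud vesicles, was mostly level: of 15 genes 14 were tested and 1 was not analysed here, 1 rose and 1 fell (median log2 fold change 0.13). The shares over all genes tested were 9.67% higher and 11.5% lower. Vps37b fell at -0.70 (SE 0.17, adjusted p = 0.019) and Vps37c, its paralogue in the ESCRT-I complex, rose at 0.50 (SE 0.14, adjusted p = 0.035). Vps37b was lost without homozygous replicate 1 or wild-type replicate 1 or 2 (adjusted p up to 0.069), and Vps37c without any library but homozygous replicate 2 (up to 0.13). Tsg101, the subunit that ARRDC1 binds, was at 33.2 ± 7.12 against 31.7 ± 2.28 CPM and did not pass.

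In the thioredoxin system 2 of 14 tested genes fell and 0 rose with edgeR's quasi-likelihood test, where 1 was higher at an unadjusted p under 0.05 and DESeq2 called 0 higher (median log2 fold change -0.12). Both were peroxiredoxins, which use thiols to remove peroxides. Among all genes tested, 9.67% were higher and 11.5% lower. Prdx2 fell from 94.05 ± 16.6 to 44.4 ± 6.83 CPM, a difference of -1.08 on the log2 scale (SE 0.16, adjusted p = 0.0021), and Prdx6 fell at -0.41 (SE 0.11, adjusted p = 0.025). Prdx6 was lost without homozygous replicate 1 or 3 or wild-type replicate 2 or 3 (adjusted p up to 0.088). Txn1, the cytosolic thioredoxin that TXNIP binds, was at 178 ± 32.5 against 137 ± 23.5 CPM and did not pass, with a difference of 0.38 on the log2 scale (SE 0.16). Txnrd1, its reductase, was at 174 ± 22.9 against 148 ± 17.9 CPM and did not pass either.

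Of 16 regulators of alpha-arrestin genes or proteins 15 were tested, of which 2 rose and 3 fell (median log2 fold change 0.15). For all genes tested the shares were 9.67% higher and 11.5% lower. Mlxipl, which encodes ChREBP, rose from 3.74 ± 0.72 to 10.4 ± 3.83 CPM, a difference of 1.49 on the log2 scale (SE 0.30, adjusted p = 0.0078). Mlxip, which encodes MondoA and was named after its values were seen, rose from 29.1 ± 4.62 to 45.9 ± 8.23 CPM, a difference of 0.65 on the log2 scale (SE 0.17, adjusted p = 0.022). It was lost without homozygous replicate 1 or 3 or wild-type replicate 1 or 2 (adjusted p up to 0.085). Mlxipl was highest in homozygous replicate 3, at 14.6 CPM, the library highest for adipocyte markers. It passed in all 6 fits that left out 1 library. Mlx, the shared partner, was at 22.4 ± 3.03 against 19.2 ± 2.65 CPM and did not pass.

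Nr3c1, the glucocorticoid receptor, fell from 288 ± 6.38 to 193 ± 22.5 CPM, a difference of -0.58 on the log2 scale (SE 0.12, adjusted p = 0.010), and its call was lost without homozygous replicate 3 (adjusted p = 0.053, the highest of the 14 alternatives, which began at 0.00023). Prkab2, a beta subunit of the energy-sensing kinase AMPK, which marks TXNIP for breakdown, fell at -0.73 (SE 0.16, adjusted p = 0.012). Mycn, named after its values were seen, fell at -0.91 (SE 0.26, adjusted p = 0.031) and was lost without homozygous replicate 1 or 3 or wild-type replicate 1 or 2 (up to 0.13). The FoxO genes Foxo1, at 48.6 ± 5.90 against 55.8 ± 7.16 CPM, and Foxo3, at 211 ± 18.3 against 191 ± 16.2 CPM, did not pass.

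Other targets of MondoA or ChREBP did not share 1 direction: of 10 tested among 11, 2 rose and 1 fell (median log2 fold change 0.16). Over all genes tested, 9.67% were higher and 11.5% lower. Hk2, a hexokinase that traps glucose in the cell, rose from 48.1 ± 4.26 to 80.1 ± 12.9 CPM, a difference of 0.73 on the log2 scale (SE 0.14, adjusted p = 0.0063). Acacb, an acetyl-CoA carboxylase, rose at 1.63 (SE 0.37, adjusted p = 0.014), with 93.05 CPM in homozygous replicate 3 against 36.5 and 40.2 CPM in homozygous replicates 1 and 2. Without homozygous replicate 3 Acacb was at 1.08, and its call was lost without wild-type replicate 2 (adjusted p = 0.053, the highest of the 14 alternatives, which began at 3.4e-22). Elovl6, a fatty acid elongase, fell from 52.4 ± 6.80 to 20.8 ± 3.14 CPM, a difference of -1.32 on the log2 scale (SE 0.15, adjusted p = 0.00084).

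Glucocorticoid- and FoxO-responsive genes, whose regulators are also known to act on Txnip, were higher for 9 of 19 tested members and lower for 0 with edgeR's quasi-likelihood test, where 1 was lower at an unadjusted p under 0.05 and DESeq2 called 9 higher and 0 lower. Their median log2 fold change was 0.33, against -0.0038 over all genes tested, of which 9.67% were higher and 11.5% lower. Klf15, a transcription factor of fasting metabolism, rose from 17.3 ± 1.29 to 91.3 ± 15.3 CPM, a difference of 2.40 on the log2 scale (SE 0.15, adjusted p = 0.00021). Fkbp5, a chaperone partner of the glucocorticoid receptor, rose from 30.4 ± 8.12 to 164 ± 47.7 CPM, a difference of 2.43 on the log2 scale (SE 0.25, adjusted p = 0.00058). Zbtb16, a zinc finger factor, rose from 46.9 ± 7.57 to 159 ± 18.7 CPM, a difference of 1.76 on the log2 scale (SE 0.15, adjusted p = 0.00032). The other 10 members did not pass, among them Klf9 at 384 ± 17.8 against 354 ± 18.06 CPM and Sgk1 at 498 ± 81.6 against 420.5 ± 27.4 CPM. Ccng2, Sesn3, Cited2 and Pdk4, at log2 fold changes of -0.08, -0.15, 0.08 and 0.25, did not pass either. Trim63, among the 9 called, was at 4.92 (SE 0.84, adjusted p = 0.0041), on 164 homozygous and 5 wild-type reads. Ddit4 and Pik3ip1 stood higher in every homozygous than in every wild-type library, at 0.83 (SE 0.11) and 0.71 (SE 0.16). Trim63, Ddit4 and Pik3ip1 were named after their values were seen. The list merges glucocorticoid- and FoxO-responsive genes, which were not counted apart, so the 9 calls cannot be read as a rise of both kinds or of 1 kind alone.

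**Figure D5:**
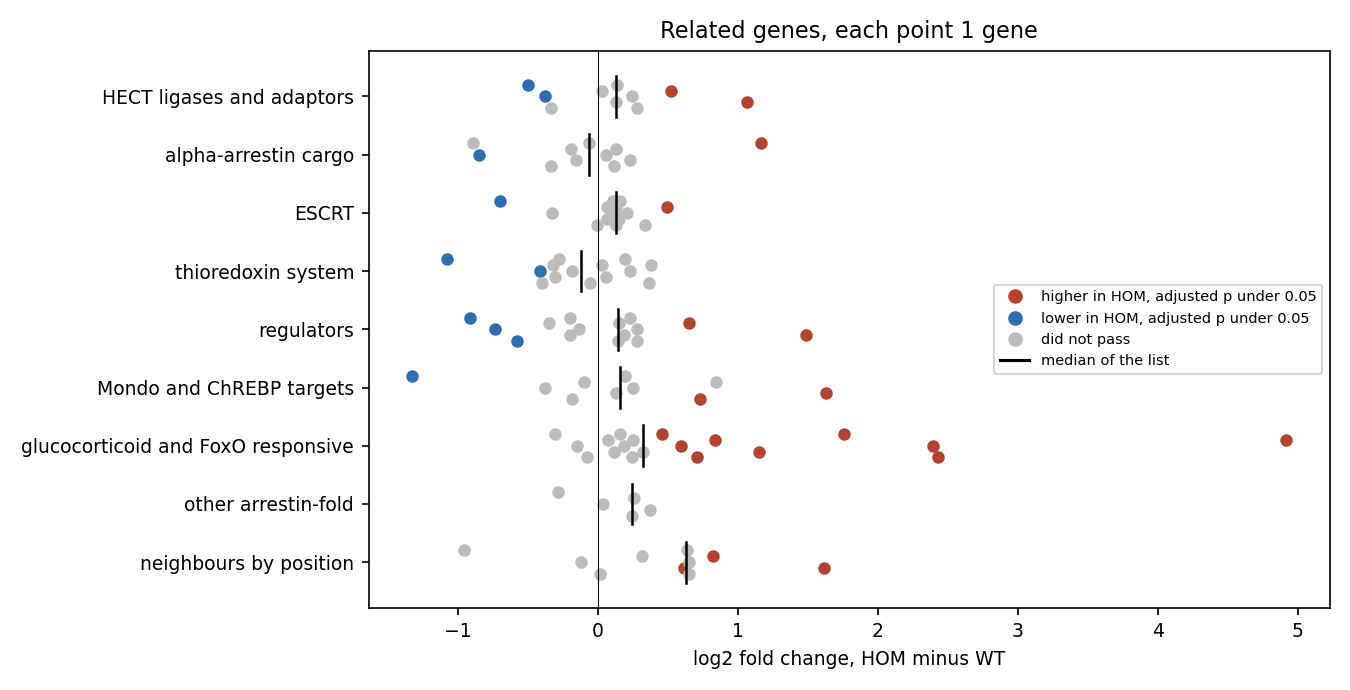
Log2 fold change, homozygous minus wild type (horizontal axis), of tested genes in 9 related lists (1 line each), red where higher and blue where lower at an adjusted p under 0.05, grey where not passed, with a black bar at the median of each list. The glucocorticoid- and FoxO-responsive list holds 9 red points and no blue one, and most other lists hold both colours.

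The nearest tested gene on either side of each alpha-arrestin gene gave 10 neighbours, of which 3 rose and 0 fell with edgeR's quasi-likelihood test, where 1 was lower at an unadjusted p under 0.05 and DESeq2 called 3 higher and 0 lower. With edgeR, 9.67% of all genes tested were higher and 11.5% lower. Mast3, a kinase gene 30.1 kb from Arrdc2, rose from 11.4 ± 0.27 to 35.05 ± 11.4 CPM, a difference of 1.62 on the log2 scale (SE 0.22, adjusted p = 0.0016). Kcnn1, a potassium channel gene 2.33 kb from the other end of Arrdc2, was at 2.95 ± 0.71 against 1.86 ± 0.65 CPM and did not pass. Polr3gl, a subunit gene of RNA polymerase III 16.0 kb from Txnip, rose from 14.1 ± 2.23 to 21.6 ± 1.73 CPM, a difference of 0.62 on the log2 scale (SE 0.16, adjusted p = 0.023). Its call was lost without homozygous replicate 3 or wild-type replicate 2 or 3 (adjusted p up to 0.073). Igf1r, the receptor of insulin-like growth factor 1, is 503 kb from Arrdc4 and rose from 112 ± 22.04 to 198 ± 13.9 CPM, a difference of 0.82 on the log2 scale (SE 0.15, adjusted p = 0.0055).

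The neighbours of Arrdc1 were Ehmt1, a histone methyltransferase gene at 68.99 ± 6.89 against 55.3 ± 4.29 CPM, and Zmynd19 at 9.69 ± 1.89 against 10.5 ± 1.02 CPM, and neither passed. Those of Arrdc3 were A830082K12Rik, 2604 kb away, and 1700023H06Rik, which lies within Arrdc3 on the opposite strand at 1.80 to 3.49 against 1.27 to 1.90 CPM. Gm15441, described above, and Gm29683, 1430 kb from Arrdc4, complete the list, and none of these 4 passed.

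Profiles over the 6 libraries were compared as the root mean square difference of log2 CPM after centring each gene, among 9051 genes averaging 10 CPM or more, with the members and genes known only by Gm, Rik or Ensembl names left out. Arrdc1 averages less than 10 CPM and was compared with them all the same. The profile of Txnip lay 0.095 from that of Arrdc1, 0.24 from Arrdc3, 0.48 from Arrdc4 and 0.68 from Arrdc2. Outside the family, the genes nearest to Txnip were Ldb1 (0.053), Crim1 (0.065) and Trafd1 (0.067), and those nearest to Arrdc1 were Inafm1 (0.056), Kank3 (0.070) and Fam193b (0.081). Those nearest to Arrdc2 were Grap (0.23), Zbtb16 (0.24), which is also in the glucocorticoid- and FoxO-responsive list, and Il6ra (0.27). Arrdc3 was nearest to Ddb1 (0.046), Brap (0.047) and Cox19 (0.053), and Arrdc4 to Grasp (0.015), Dedd2 (0.022) and Rbfox2 (0.032). A gene with a small difference between genotypes has many others near it, so these distances are not comparable between members.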

How the data were processed

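The deposited files hold raw read counts per Ensembl gene from the authors, 1 file per library, made from total RNA with a stranded kit after depletion of ribosomal RNA, per the labels' protocols. The submitters' processing notes name Trimmomatic 0.32, STAR 2.5.2b, HTSeq 0.6.1 and mm10 with no roles. How strand was treated and which annotation was used are not given in those notes. GENCODE M21 (GRCm38) matched 38861 of 39059 identifiers. Summary lines (45.0 to 49.8% of reads) stayed out of totals and tests.

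The fit used edgeR 4.0.16 (R 4.3.3): filterByExpr (minimum count 10, total 15), TMM, quasi-likelihood test without covariates, Benjamini-Hochberg adjustment over 14099 genes, threshold 0.05. The SE is the log2 fold change divided by the square root of F. 21.1% of genes were called. No pair of libraries of a genotype agreed within sampling noise (chi-square of 8.35 to 22.5 per gene). The test was checked on simulated counts.

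The 5 genes and all lists were chosen with earlier results of these data known. Named genes are the 5, the neighbours, the 3 nearest profiles per gene, and up to 3 called members per list with the smallest p (with none called, the 1 of highest CPM); other names were chosen after their values were seen. A830082K12Rik, Elovl6, Foxo1, Kcnn1, Mlx, Mlxip, Mlxipl, Ndfip2, Pik3ip1, Polr3gl, Prdx2, Prkab2, Slc2a1, Vps37b, Crim1, Dedd2, Ddb1, Grap, Il6ra, Kank3, Ldb1 and Trafd1 overlap exons of a gene on the opposite strand, so their counts are uncertain to that extent. Alternatives were DESeq2 size factors, library totals, the DESeq2 1.42.0 Wald test, other filters, a replicate block, Y-linked reads as a covariate, omission of replicate 2 of both genotypes, and omission of each library.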

Additional observations from a re-analysis of the deposited data

How the results depend on the processing

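The sign of the log2 fold change of each of the 5 alpha-arrestin genes was the same in all 14 alternatives. Arrdc4, at -0.22 (SE 0.13) with all libraries, was at -0.33 without replicate 2 of both genotypes. Without 1 library, log2 fold changes ran from 0.62 to 0.82 for Txnip, 0.57 to 0.95 for Arrdc1, 1.96 to 2.20 for Arrdc2, 0.33 to 0.45 for Arrdc3 and -0.30 to -0.16 for Arrdc4. The number of the 5 called fell from 4 to 3 with library totals, the DESeq2 test and no filter on low counts, and to 2 with the replicate block, with Y-linked reads as a covariate and without replicate 2 of both genotypes, and was 2 to 3 without 1 library. Genes called in all numbered 1933 with the Y-linked covariate, against 2980, and 1576 to 4002 without 1 library.

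Among ligases and adaptors 4 were called, but 2 with the replicate block and 1 with the Y-linked covariate (0 lower in both), and 1 to 3 without 1 library. For ESCRT genes, 2 were called, but 1 with the DESeq2 test, the block or the covariate, 4 without replicate 2 of both genotypes, and 0 to 3 without 1 library. In the thioredoxin system 2 were called, but 1 with the block or the covariate and 1 to 2 without 1 library. For regulators 5 were called, but 3 with the covariate and 2 to 6 without 1 library. Without 1 library, 2 to 3 cargo genes, 2 to 4 sugar-responsive targets, 7 to 9 glucocorticoid- and FoxO-responsive genes, 2 to 4 neighbours and 0 other arrestin-fold genes were called. The cause of these shifts was not tested.

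Libraries share only a replicate number: deviations of same-numbered libraries correlated at -0.036, 0.022 and -0.096 across genes, and libraries did not all correlate best with their own number. The replicate block called 2437 genes. Other scalings moved the median log2 fold change of all genes by at most 0.022. Arrdc1 rests on 31 to 99 reads per library, so its value is the least precise of the 5.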
